A study of Homo sapiens with 3 samples.

Results

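The 32 genes described here are known targets of p53, chosen by name with earlier results of these data known. Their levels were read on 3 Affymetrix expression arrays of KYSE150, an established human oesophageal squamous carcinoma line. For every gene, the brightest probe set that carried its symbol alone was used, by its mean over the arrays. A probe set is a group of oligonucleotide probes read together as 1 value. Of the 32 genes, 30 had such a probe set, out of 18132 genes in the series. BTG2 and FDXR were not analysed here. The cells had been transfected with the pcDNA3.1 plasmid for LOXL2 delta72, with the pcDNA3.1 plasmid for LOXL2 WT or with vector, and RNA was taken 48 h later. LOXL2 is a lysyl oxidase, and the labels do not describe the delta72 form further. Each condition was 1 array, so the differences below have no replicate check and no test, and words such as "higher" compare single arrays.

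p53 is a transcription factor that is held at a low level by the ubiquitin ligase MDM2 and is stabilised by DNA damage and other stress. It then switches on genes that stop the cell cycle, repair DNA, adjust metabolism or start apoptosis, and it switches on MDM2 itself, which closes a feedback loop. Several of these genes also answer to other factors, among them ATF4 and CHOP, which act when protein folding in the endoplasmic reticulum fails. In squamous carcinomas p53 is often mutated. The labels give no p53 status for these cells.

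The deposited values were read as log2 intensities. Genes were kept for counts when their mean over the arrays reached log2 5.27, the 40th percentile of probe sets, which left 12232 genes and 29 of the 30 measured p53 targets. CYFIP2, which encodes a WAVE complex subunit, was the 1 measured gene below the filter, at 4.35 on the delta72, 4.50 on the WT and 4.38 on the control array. LOXL2 read 14.06 on the delta72, 14.05 on the WT and 7.46 on the control array. Of 8 squamous markers listed, 5 were measured, KRT5, KRT14, DSG3, SFN and PKP1, and all of these lay above the filter, with KRT5 at 11.27, 11.52 and 11.62 on the delta72, WT and control arrays. KRT14, a basal keratin gene, was lower on both LOXL2 arrays, at 7.10 and 7.08 against 7.76 in control, or -0.66 with delta72 and -0.67 with WT. PTPRC, the pan-leukocyte gene, lay between 2.83 and 3.08, and the fibroblast genes DCN and LUM between 3.21 and 3.77, all below the filter. Of the measured markers of other cells, 1 of 5 for fibroblasts, 2 of 4 for leukocytes and 3 of 4 for endothelium lay above the filter. PECAM1, an endothelial gene, lay above it, between 5.86 and 6.05, and so did the macrophage gene CD68, between 8.44 and 8.97. Their part in the results was not tested. The arrays measure the RNA of whole cultures, so a change in every cell and a change in a share of the cells cannot be told apart.

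As a group the p53 targets did not lie to 1 side of the control array. With LOXL2 delta72, 16 of the 29 genes were higher than control and 13 lower, against 49.8% of all genes above 0 and 49.8% below. Their median log2 difference was 0.03, against 0.00 over all genes. With LOXL2 WT, 14 were higher and 15 lower, against 48.0% and 51.7% of all genes. Their median was -0.03, against -0.01 over all genes. Neither median kept its sign under every scaling, with -0.0057 for delta72 once the arrays had the same median over the genes above the filter, and 0.0382 for WT after a lowess correction for intensity. Genes of the same role lay on opposite sides, such as the feedback genes MDM2 and PPM1D above control and CCNG1 below it.

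The single genes lay somewhat farther from control than genes in general. The median size of the difference, without its sign, was 0.16 for the p53 targets and 0.12 for all genes with delta72, and 0.22 and 0.15 with WT. The members were chosen with earlier results of these data known, so this contrast describes the chosen genes only and was not tested. A difference of at least 1.5-fold, or log2 0.58, was taken as the size to count. With delta72, TIGAR was higher by this size (1 of 29 members, against a background of 1.28% of all genes) and FAS lower, on 1 of its 2 probe sets (1 of 29, against 0.499%). With WT, TIGAR and AEN were higher (2 of 29, against 1.85%) and GDF15 was lower (1 of 29, against 0.867%). Counts of 1 or 2 genes are too few to set apart from these shares. Over all genes, those counted as higher made up 72.0% of the counted genes with delta72 and 68.1% with WT, and 61.5% and 54.9% once the arrays had the same median over the genes above the filter. The members counted were the same number under that shift.

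At the smaller size of 1.3-fold, or log2 0.38, delta72 had 3 members higher, TIGAR, AEN and SESN2, and 2 lower, FAS and CCNG1, against 4.91% and 2.66% of all genes. WT had 5 higher, TIGAR, AEN, TP53I3, PPM1D and MDM2, and 4 lower, GDF15, CCNG1, BBC3 and FAS, against 7.07% and 4.37%. Just outside this size with delta72 was PPM1D at 0.37. Within 1.3-fold of control were 24 of 29 members (82.8%) with delta72 and 20 of 29 (69.0%) with WT, against 92.4% and 88.6% of all genes. The 23 background probe sets of the array, which match no transcript, differed from control by up to 0.17 with delta72 and 0.29 with WT. Beyond that, 8 members lay above and 6 below with delta72, against 19.3% and 16.7% of all genes, and 6 above and 6 below with WT, against 12.1% and 9.66%. Both comparisons use the same control array, so a gene that differs in both is not an independent repeat.

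**Figure D1:**
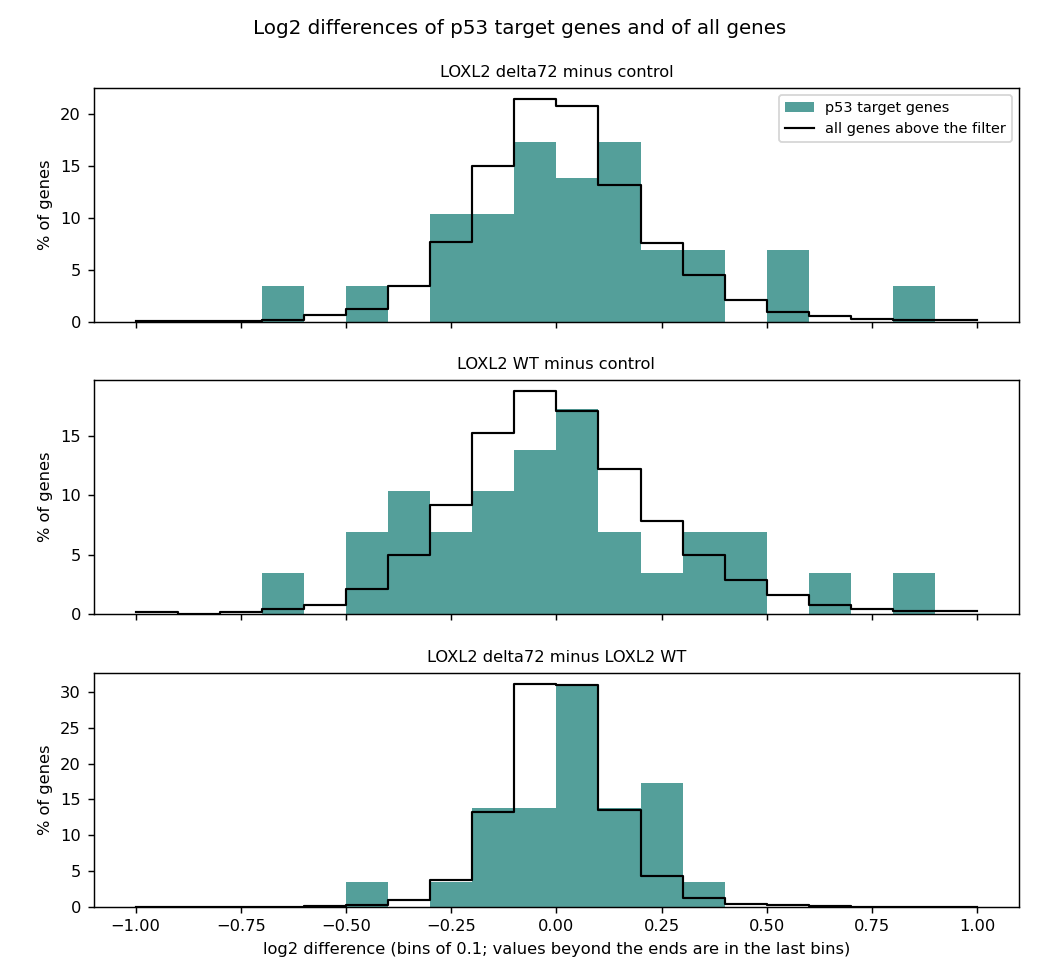
Share of genes, in percent, by log2 difference in bins of 0.1, for the 29 p53 target genes above the filter (bars) and all 12232 genes above it (line), with 1 panel for each comparison. The bars spread to either side of 0 in the comparisons with control, with medians of 0.03 for LOXL2 delta72 and -0.03 for LOXL2 WT, and lie closer to 0 between both LOXL2 forms.

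The promoters of the members at the ends of these comparisons are shown because they let a reader see which sequence lies before genes that share a factor but not a direction. TIGAR was the member at least 1.5-fold different on both LOXL2 arrays, GDF15 and FAS were the lowest with WT and delta72, and TP53I3 was the lowest between the forms. AEN was added after its values were seen, since it came next to TIGAR with WT. With delta72, SESN2 came next and AEN after it. The sequences are from RefSeq on GRCh38.p14, read 5′ to 3′ on the strand of the gene, and give the 250 bases before the transcription start. Capitals mark matches on either strand to the p53 half-site consensus, to the ATF4 and CHOP composite element TGATGNAAN, to the AP-1 pattern TGANTCA or to the E-box CACGTG. N stands for any base, so the AP-1 pattern is a loose one. The positions are chr12:4320963-4321212 on the plus strand for TIGAR, chr15:88621090-88621339 on the plus strand for AEN, chr19:18385908-18386157 on the plus strand for GDF15, chr10:88990548-88990797 on the plus strand for FAS and chr2:24084835-24085084 on the minus strand for TP53I3, and for FAS the first of 3 listed starts was taken.
TIGAR: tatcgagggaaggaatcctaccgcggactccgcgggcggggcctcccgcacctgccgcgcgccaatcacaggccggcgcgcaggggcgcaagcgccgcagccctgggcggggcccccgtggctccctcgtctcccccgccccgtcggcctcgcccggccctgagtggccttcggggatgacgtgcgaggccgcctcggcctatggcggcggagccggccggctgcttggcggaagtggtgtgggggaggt
AEN: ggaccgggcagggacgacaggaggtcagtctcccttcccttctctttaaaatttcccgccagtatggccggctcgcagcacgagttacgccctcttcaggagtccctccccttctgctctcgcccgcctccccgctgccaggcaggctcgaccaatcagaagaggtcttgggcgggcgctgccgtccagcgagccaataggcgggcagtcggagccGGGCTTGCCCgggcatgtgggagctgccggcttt
GDF15: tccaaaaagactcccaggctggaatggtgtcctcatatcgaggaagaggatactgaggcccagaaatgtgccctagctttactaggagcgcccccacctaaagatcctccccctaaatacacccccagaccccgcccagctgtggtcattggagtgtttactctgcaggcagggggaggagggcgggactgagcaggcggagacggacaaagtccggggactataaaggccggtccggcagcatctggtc
FAS: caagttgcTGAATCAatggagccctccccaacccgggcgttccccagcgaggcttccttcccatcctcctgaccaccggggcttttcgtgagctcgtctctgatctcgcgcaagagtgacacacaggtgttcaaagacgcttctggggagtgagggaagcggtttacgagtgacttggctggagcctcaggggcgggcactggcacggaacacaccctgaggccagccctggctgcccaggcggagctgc
TP53I3: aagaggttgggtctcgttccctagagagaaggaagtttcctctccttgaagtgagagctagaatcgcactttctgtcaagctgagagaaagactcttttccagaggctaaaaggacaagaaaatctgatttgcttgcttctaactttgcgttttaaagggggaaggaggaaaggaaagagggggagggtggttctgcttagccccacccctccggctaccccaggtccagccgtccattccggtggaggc

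In AEN the capitals are a p53 half-site, from base -34 to -25 before the start. In FAS they are a match to the loose AP-1 pattern, TGAATCA, from base -242 to -236. The TIGAR, GDF15 and TP53I3 windows held none of the 4 motifs. The promoter table matched 26 of the 32 members by symbol, and a gene with several starts was counted once if any of them held the motif. The p53 half-site was present in 5 of 26 members, PLK2, AEN, FAS (at another of its starts), SESN1 and FDXR, against 6.80% of 27305 genes. The loose AP-1 pattern was present in 4 of 26, SFN, MDM2, BBC3 and FAS, against 8.06%. The E-box was present in BBC3 and BAX, against 7.73% of genes, and the composite element in PLK3 alone, against 3.87%. Many known p53 sites lie outside such a window, for example in the first intron of MDM2, so these matches describe letters and not binding.

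Among the metabolic and redox targets, TIGAR was the highest member with each form against control. TIGAR, a phosphatase that removes a sugar phosphate that activates glycolysis and so diverts glucose to the pentose phosphate pathway, read 8.29 on the delta72, 8.33 on the WT and 7.46 on the control array. Both LOXL2 arrays were above control and close to each other. The differences from control were 0.83 with delta72 (1.78-fold, SD 0.11 over 2 probe sets) and 0.87 with WT (1.83-fold, SD 0.26). The second TIGAR probe set gave 0.995 and 1.24. Of the genes above the filter, 99.7% lay below TIGAR in either comparison.

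The sestrins, stress-induced inhibitors of mTORC1 signalling, differed from each other. SESN2 read 7.07 on the delta72, 6.78 on the WT and 6.51 on the control array, a stepwise order with delta72 on top. It was 0.56 above control with delta72 (1.48-fold, SD 0.23 over 2 probe sets) and 0.27 above with WT (SD 0.16). SESN1 read 7.79, 7.58 and 7.80 on the delta72, WT and control arrays, so that only the WT array stood apart, on the lower side. The second SESN1 probe set was 0.28 above control with delta72 and -0.07 with WT.

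TP53I3, a quinone oxidoreductase linked to reactive oxygen, was the 1 member in which the WT array stood apart on the high side. It read 5.65 on the delta72, 6.12 on the WT and 5.64 on the control array, on 1 probe set. The difference from control was 0.01 with delta72 and 0.48 with WT (1.39-fold). These values lie close to the filter at 5.27.

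The feedback genes were split. MDM2 read 7.47 on the delta72, 7.57 on the WT and 7.19 on the control array, so both LOXL2 arrays were above control. It differed from control by 0.28 with delta72 (1.21-fold, SD 0.07) and by 0.38 with WT (SD 0.17), and 4 of the 4 probe sets above the filter were higher with each form. Of its 11 probe sets, 7 lay below the filter, and the median of all 11 differences was 0.10 with delta72 and 0.03 with WT.

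PPM1D, the WIP1 phosphatase that removes activating phosphates from p53 and its kinases, read 7.59 on the delta72, 7.66 on the WT and 7.22 on the control array. It was higher with delta72 by 0.37 (SD 0.32 over 4 probe sets) and with WT by 0.45 (SD 0.23), and the 4 probe sets were higher with each form. Its 3 dimmer probe sets differed by 0.88, 0.90 and 0.29 with delta72 and by 0.59, 0.89 and 0.35 with WT. The median of the 4 differences was 0.63 with delta72 and 0.52 with WT.

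CCNG1, cyclin G1, which recruits a phosphatase to MDM2, went the other way. It read 9.11 on the delta72, 9.11 on the WT and 9.59 on the control array. The difference was -0.48 with delta72 and -0.48 with WT (1.40-fold lower, SD 0.12 in each), and 5 of 5 probe sets were lower with each form. Of the genes above the filter, 1.17% lay below it with delta72 and 1.82% with WT.

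**Figure D2:**
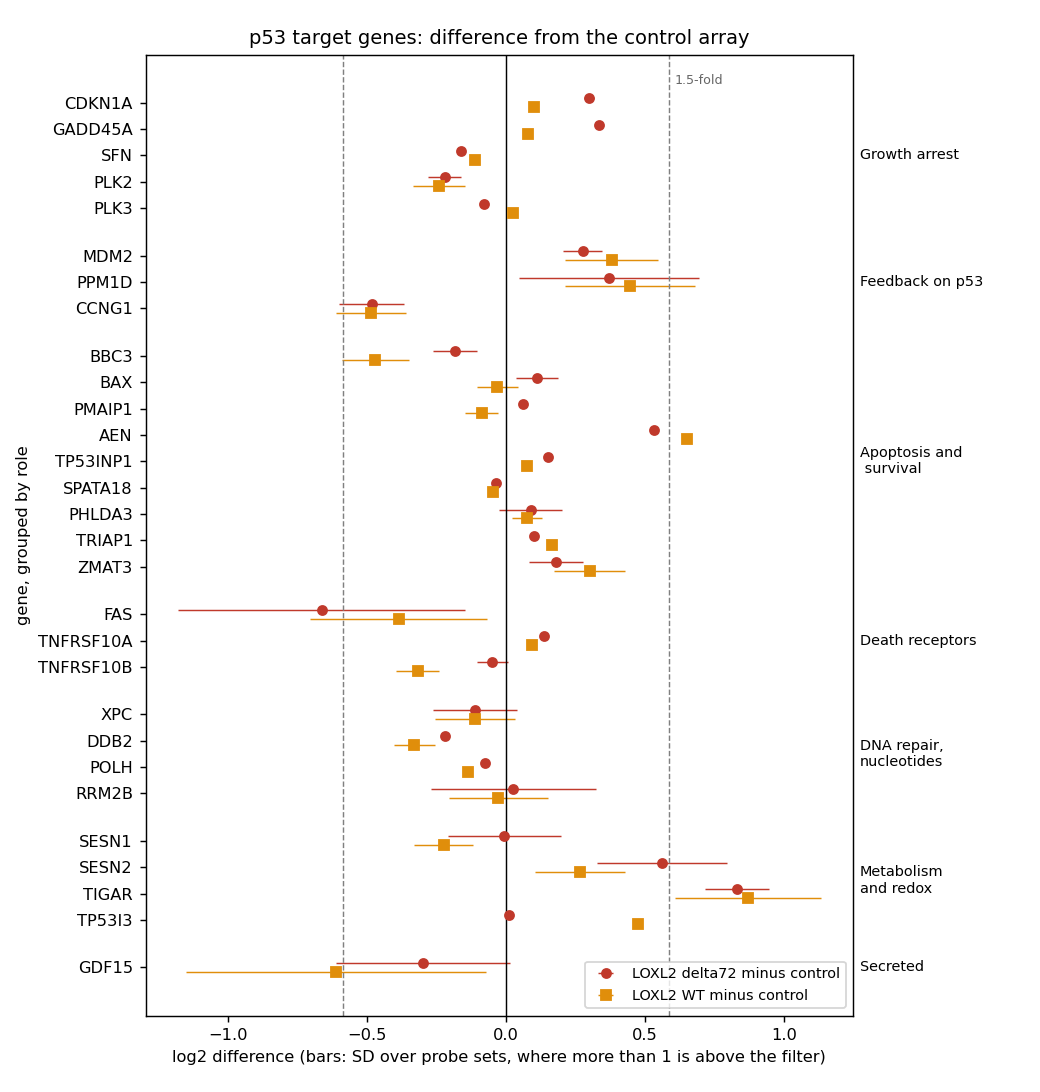
Log2 difference of each of the 29 p53 target genes above the filter from the control array, for LOXL2 delta72 (circles) and LOXL2 WT (squares), grouped by role. Bars are the SD over a gene's probe sets above the filter and dashed lines mark 1.5-fold. Farthest to the right lies TIGAR, followed by SESN2 and AEN with delta72 and by AEN with WT. Farthest to the left lie FAS with delta72 and GDF15 with WT, each followed by CCNG1.

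The 5 measured growth arrest genes lay on either side of control. All were within 1.3-fold of it in both comparisons, as were 92.4% of all genes with delta72 and 88.6% with WT. CDKN1A, which encodes the cyclin-dependent kinase inhibitor p21, read 9.63 on the delta72, 9.43 on the WT and 9.33 on the control array. It was 0.30 above control with delta72 (1.23-fold, SD 0.02 over 2 probe sets) and 0.10 above with WT (1.07-fold), with delta72 standing apart. GADD45A, a stress sensor that binds PCNA and p21, had the same order, at 11.03, 10.77 and 10.69 on the delta72, WT and control arrays, or 0.33 and 0.08 above control. The polo-like kinase gene PLK2 was at -0.22 with delta72 and -0.24 with WT, with 4 of 4 probe sets lower in each. SFN, the 14-3-3 sigma gene that holds cells in G2, was at -0.16 and -0.11. PLK3 was at -0.08 and 0.02.

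Of the death receptor genes, FAS was the lowest member with delta72. Its brighter probe set read 6.999 on the delta72, 7.28 on the WT and 7.66 on the control array, or -0.66 with delta72 (1.58-fold lower) and -0.39 with WT. Its other probe set, nearly as bright, read 7.20, 7.20 and 7.14, or 0.07 and 0.06, so the probe sets disagreed in sign (SD 0.52 and 0.32). Probe positions were not used here. TNFRSF10B, the TRAIL receptor DR5, read 10.80 on the delta72, 10.53 on the WT and 10.85 on the control array, with the WT array low. It was at -0.05 with delta72 and -0.32 with WT (SD 0.08 over 3 probe sets). TNFRSF10A, the TRAIL receptor DR4, was at 0.14 and 0.09.

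Among the apoptosis genes, AEN and BBC3 lay on opposite sides. AEN, a nuclease that degrades DNA during apoptosis, read 7.84 on the delta72, 7.96 on the WT and 7.31 on the control array. Both LOXL2 arrays were above control, by 0.53 (1.44-fold) and 0.65 (1.57-fold), on 1 probe set. BBC3, which encodes the BH3-only protein PUMA, read 8.33 on the delta72, 8.04 on the WT and 8.51 on the control array. It was at -0.18 with delta72 (SD 0.08 over 2 probe sets) and at -0.47 with WT (1.39-fold, SD 0.12), with the WT array lowest.

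The other apoptosis and survival genes stayed within 1.3-fold of control, as did 92.4% of all genes with delta72 and 88.6% with WT. BAX, the pore-forming effector of mitochondrial apoptosis, was at 0.11 with delta72 and -0.03 with WT, and PMAIP1, which encodes the BH3-only protein NOXA, at 0.06 and -0.09. ZMAT3, an RNA-binding zinc finger gene, was at 0.18 and 0.30. TRIAP1, an inhibitor of apoptosome formation, was at 0.10 and 0.17, and PHLDA3, a competitor of AKT for membrane lipids, at 0.09 and 0.07. TP53INP1, a cofactor of p53-driven cell death and autophagy, was at 0.15 and 0.08. SPATA18, which acts in mitochondrial quality control, was at -0.04 in each comparison and lay near the filter.

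GDF15, a secreted stress cytokine, was the lowest member with WT. It read 8.39 on the delta72, 8.08 on the WT and 8.69 on the control array, so that delta72 lay between the other arrays. The differences were -0.30 with delta72 (1.23-fold lower) and -0.61 with WT (1.53-fold lower). The 3 brightest of its 4 probe sets above the filter were lower with each form, the second at -0.38 and -0.83 and the third at -0.58 and -0.98. The dimmest was higher, at 0.16 and 0.23, which made the SD 0.31 and 0.54.

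The repair genes were at or slightly below control. DDB2, a damage sensor of nucleotide excision repair, was at -0.22 with delta72 and -0.33 with WT, with 2 of 2 probe sets lower in each. XPC, its partner in damage recognition, was at -0.11 in each, and its second probe set at 0.10 and 0.09. POLH, the translesion polymerase eta, was at -0.08 and -0.14. RRM2B, the p53-induced ribonucleotide reductase subunit, was at 0.03 and -0.03 on its brightest probe set, and at 0.45 and 0.22 on the next.

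**Figure D3:**
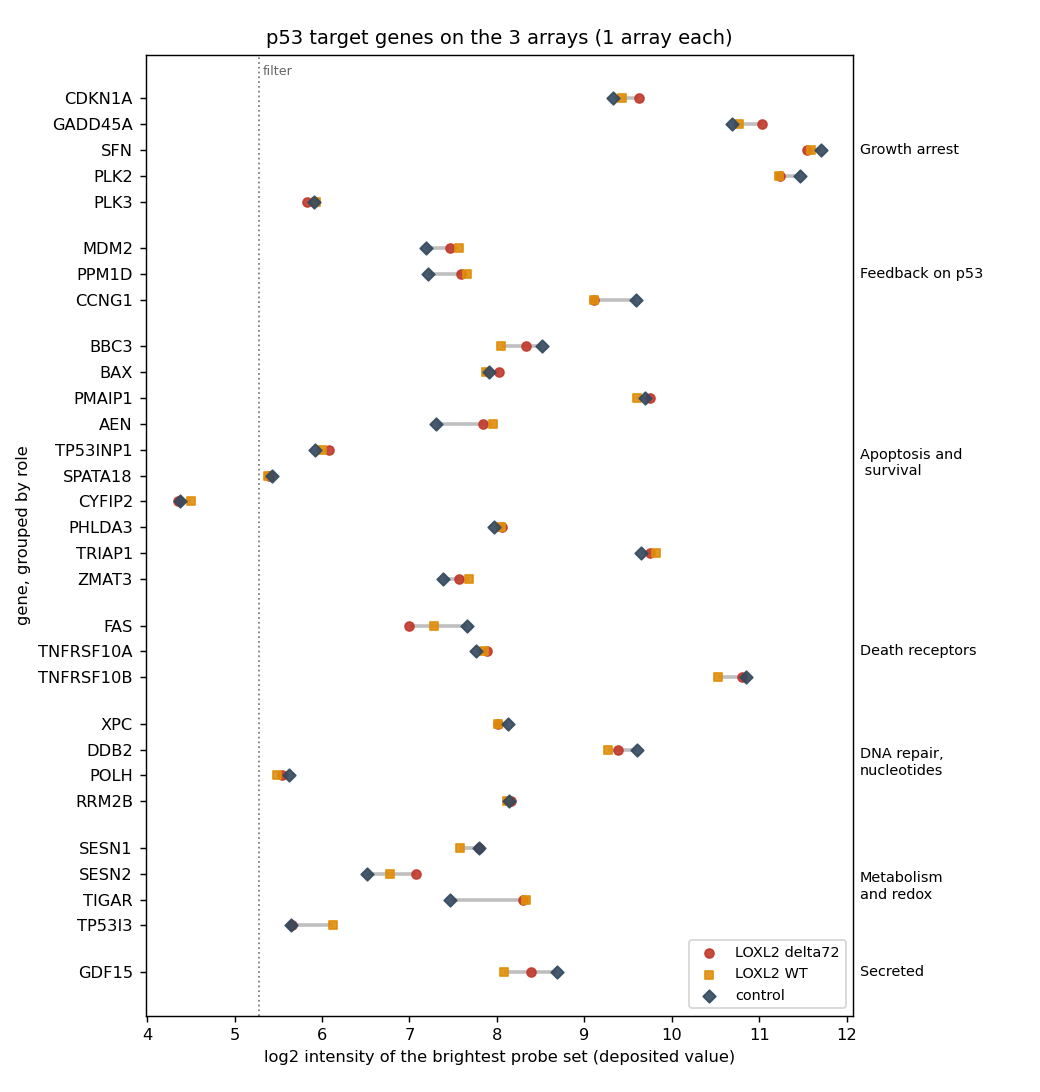
Deposited log2 intensity of the brightest probe set of each of the 30 measured p53 target genes on the LOXL2 delta72, LOXL2 WT and control arrays (1 array each), with genes grouped by role and the filter at 5.27 as a dotted line. Within a gene, TIGAR and AEN show both LOXL2 arrays to the right of control, CCNG1 both to the left, and TP53I3 the WT array alone to the right. Positions of different genes are not comparable as amounts.

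For each member the array farthest from the middle of its 3 values was noted. The control array stood apart in 17 of 29 members, on the low side in 9 and on the high side in 8, against 54.2% of all genes. The WT array stood apart in 6 (20.7%, against 27.3% of all genes). It was on the low side in 5 of the 29 (17.2%), BBC3, PMAIP1, TNFRSF10B, SESN1 and GDF15, close to the 15.5% of all genes. The delta72 array stood apart in 6 (20.7%, against 18.5% of all genes). It was on the high side in 5 of the 29 (17.2%), CDKN1A, GADD45A, BAX, RRM2B and SESN2, against 9.04% of all genes. RRM2B was a near tie, at 0.0271 from control with delta72 and -0.0266 with WT. The second BAX probe set was at -0.07 for delta72 minus WT, opposite to the brightest one.

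Probe sets of the same gene were compared as the only internal repeat. Above the filter, 19 of the 29 members had 2 or more probe sets, and 13 of these 19 had all such probe sets on the same side of 0 with delta72, and 13 with WT. The same count was not made over all genes. Whether the probe sets of members share a side more often than those of genes in general is therefore not known. The SD of the difference over probe sets, pooled over 7163 genes, was 0.15 for delta72 against control, 0.17 for WT against control and 0.11 between the forms. Since the probe sets share an array, this SD holds no culture or hybridisation error.

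**Figure D4:**
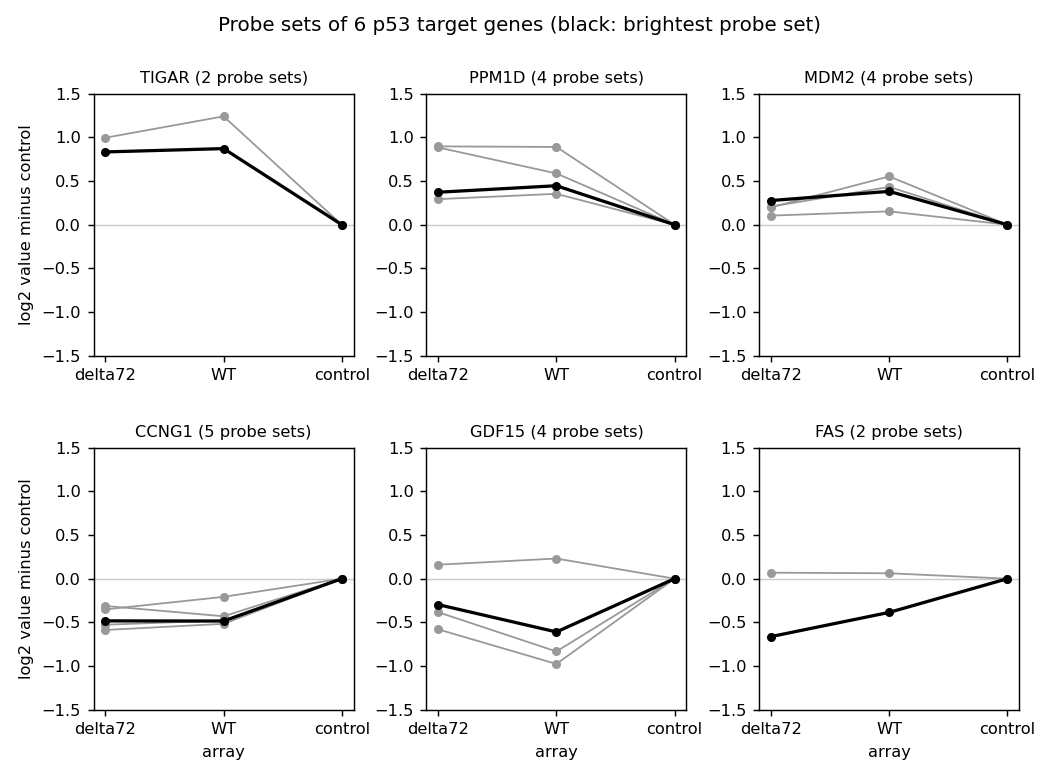
Log2 value of each probe set above the filter minus its value on the control array, on the LOXL2 delta72, LOXL2 WT and control arrays, for TIGAR, PPM1D, MDM2, CCNG1, GDF15 and FAS. The brightest probe set is black. All probe sets of TIGAR, PPM1D and MDM2 lie above control and all 5 of CCNG1 below, while 1 of 4 for GDF15 and 1 of 2 for FAS lies on the other side of 0.

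The comparison of LOXL2 delta72 with LOXL2 WT does not use the control array. Of the 29 members, 19 were higher with delta72 and 10 lower, against 50.4% and 49.3% of all genes. Their median was 0.02, against 0.00 over all genes. At 1.5-fold, 0 members were higher, against 0.18% of all genes, and 0 lower, against 0.0409%. At 1.3-fold, 0 were higher, against 0.842%, and 1 lower, against 0.409%. The 1 lower member was TP53I3 at -0.47 (1.38-fold), and 0.13% of the genes above the filter lay below it.

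The highest members between the forms were GDF15 at 0.31 (SD 0.23 over 4 probe sets), SESN2 at 0.30 (SD 0.07 over 2), BBC3 at 0.29 (SD 0.04 over 2), TNFRSF10B at 0.27 (SD 0.05 over 3), GADD45A at 0.25 on 1 probe set, SESN1 at 0.22 and CDKN1A at 0.20. These 7 of 29 members exceeded 0.15, the largest difference of any of the 23 background probe sets between these arrays, against 11.2% of all genes. Below -0.15 lay TP53I3 and FAS, at -0.28, or 2 of 29, against 9.41% of all genes.

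The members that ATF4 or CHOP are also known to raise were GDF15, SESN2, TNFRSF10B, PMAIP1, BBC3 and GADD45A, a list chosen with results of these data known. All 6 were higher with delta72 than with WT, where 50.4% of all genes were, with a median of 0.28. They ran from 0.1475 for PMAIP1 to 0.31 for GDF15. Of the 6, PMAIP1 alone did not exceed the largest background probe set difference, 0.1520, and its second probe set was at 0.06. Of the other 23 members, 13 were higher and 10 lower, with a median of 0.00. Against control these 6 did not lie to 1 side. Their median was 0.01 with delta72, with 3 higher and 3 lower, and -0.20 with WT, with 2 higher and 4 lower.

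**Figure D5:**
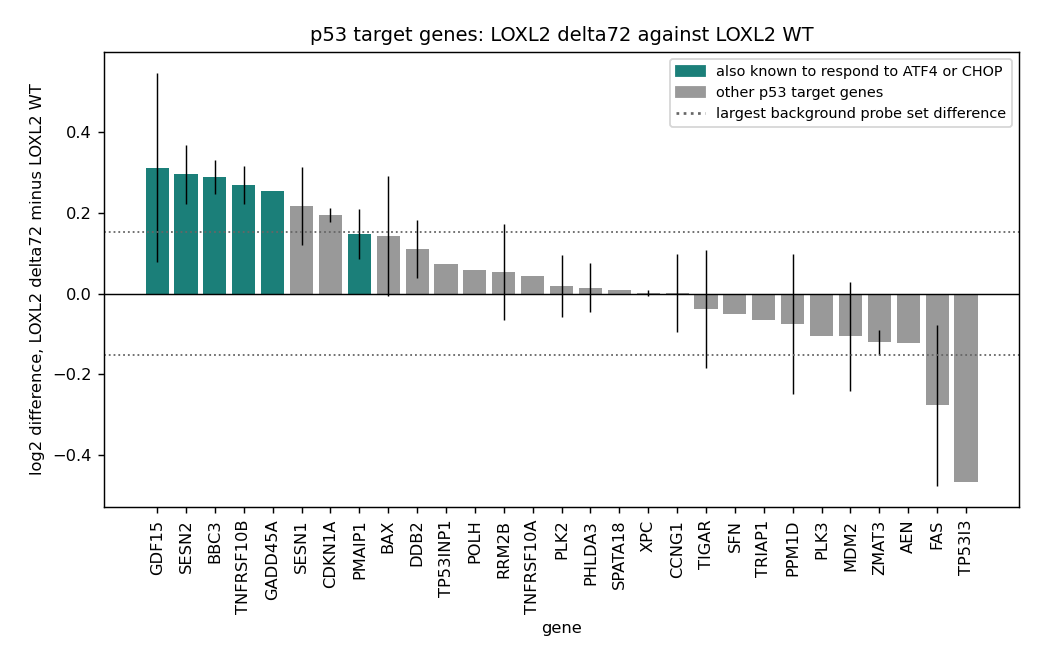
Log2 difference of LOXL2 delta72 minus LOXL2 WT for each of the 29 p53 target genes above the filter, in order of size. Bars in green are the 6 members also known to respond to ATF4 or CHOP, error bars are the SD over probe sets where a gene has more than 1 above the filter, and dotted lines mark the largest background probe set difference, 0.15. The 5 highest bars are green and TP53I3 is the lowest.

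Genes of endoplasmic reticulum and related stress that are not members, ATF4 itself among them, were set beside them. This list too was chosen with results of these data known. Of 13 such genes above the filter, 13 were higher with delta72 than with WT, against 50.4% of all genes, with a median of 0.24. ATF4 at 0.01, XBP1 at 0.04 and CHAC1 at 0.14 did not exceed the largest background probe set difference, 0.15. At 1.5-fold, 1 of the 13 was higher, against 0.18% of all genes. DDIT3, which encodes CHOP, read 8.98 on the delta72, 8.36 on the WT and 7.33 on the control array. HERPUD1, an endoplasmic reticulum degradation factor, was 0.57 higher with delta72 than with WT, HSPA5, the chaperone BiP, 0.26 higher, and ATF3, a stress-induced repressor that also counts as a p53 target, 0.22 higher. Against control the 13 genes had a median of 0.28 with delta72 and 0.15 with WT, with 8 higher and 5 lower in each comparison. With delta72, 5 were at least 1.5-fold higher (1.28% of all genes) and 0 lower (0.499%), and with WT 3 were higher (1.85%) and 1 lower (0.867%). The lower one, named after its values were seen, was DDIT4, an inhibitor of mTORC1 signalling, at -0.17 with delta72 and -0.66 with WT. ASNS, the asparagine synthetase gene, and SLC7A11, the cystine transporter gene, named in the same way, were at -0.26 and -0.24 with delta72 and at -0.43 and -0.40 with WT.

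Further p53 targets that are not members also lay on either side of control. Of 45 on the list, 37 lay above the filter, with medians of -0.04 with delta72 and 0.00 with WT, with 17 higher and 20 lower with delta72 (49.8% of all genes on either side) and 19 higher and 18 lower with WT (48.0% and 51.7%). At 1.5-fold, 2 were higher and 1 lower with delta72, against 1.28% and 0.499% of all genes, and 1 was higher and 2 lower with WT, against 1.85% and 0.867%. EPS8L2, an actin regulator, was at -0.81 and -0.87, FUCA1, a lysosomal fucosidase, at -0.37 and -0.68, PTP4A1, a phosphatase, at 0.64 and 0.70, and ATF3 at 0.69 and 0.47.

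Genes of the p53 family and its regulators stayed within 1.5-fold of control. Of all genes, 1.28% were higher and 0.499% lower by this size with delta72, and 1.85% and 0.867% with WT. Of 24 on the list, 22 lay above the filter and 2 were not analysed here, with medians of 0.02 with delta72 and 0.00 with WT. TP73, a p53 paralog, read 6.96 on the delta72, 6.75 on the WT and 7.06 on the control array, and MDM4, an MDM2 partner that inhibits p53, read 8.13, 8.14 and 8.22. The acetyltransferase genes CREBBP and EP300, coactivators of p53, were at 0.46 and 0.20 with delta72 and at 0.53 and 0.53 with WT. PPP1R13L, which encodes the inhibitor iASPP, was at -0.33 and -0.44, and the checkpoint kinase gene CHEK2 at -0.35 and -0.25.

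Cell cycle genes that p21 and the DREAM repressor are known to lower were set beside CDKN1A. Of 24 genes, 20 were lower than control with delta72 and 20 with WT, against 49.8% and 51.7% of all genes below 0. At 1.5-fold, 0 were lower in either, against 0.499% of all genes with delta72 and 0.867% with WT. At 1.3-fold, 3 were lower with delta72 and 5 with WT, against 2.66% and 4.37% of all genes, and 0 were higher. The medians of the 24 were -0.20 and -0.21. CCNA2, cyclin A2, was at -0.58 with delta72 and -0.40 with WT, KIF20A, a mitotic kinesin gene, at -0.48 and -0.41, CCNB2, cyclin B2, at -0.41 and -0.44, and AURKB, the Aurora B kinase gene, at -0.24 and -0.43. CDKN1A itself was 0.30 and 0.10 above control. Between the forms the list's median was -0.01, and CDKN1A was 0.20 higher with delta72. Whether p21 had a part in these differences was not tested.

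TIGAR had the largest difference of any member, and the genes with the most similar 3 values were found by the distance between values centred on each gene's mean. The nearest of the 12232 genes were TYW5, AP4S1, RNF6, CREB5 and CPEB4, at distances of 0.01, 0.03, 0.04, 0.04 and 0.05 on the log2 scale. TYW5 was at 0.84 with delta72 and 0.86 with WT, and CPEB4 at 0.79 and 0.89. Likeness over 3 arrays is a description only.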

How the data were processed

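The authors deposited 1 table of values for 49395 probe sets on 3 arrays, 1 per group, with no column left unused. Per the submitters' processing notes, Partek and Affymetrix Expression Console were used, and the labels name no version, background correction or normalization algorithm. The unit of the deposited values was taken as log2, since they lie between 2.07 and 14.56. The array medians were 5.94 (delta72), 5.93 (WT) and 5.95 (control). Differences are relative to the deposited scale.

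Of the probe sets, 102 are Affymetrix controls. Among the others, 44988 had 1 gene symbol in GEO's platform annotation, 1832 had several and 2473 were not listed. Differences were computed with Python 3.11.15, pandas 2.3.3 and numpy 2.4.6. The counting code was run on simulated arrays with changes larger than any member showed, which checks the code and not the precision of the counts. The number of arrays limits the precision. Members and gene lists were chosen with earlier results of these data known. Values on each array are given for members at least 1.3-fold different in any comparison and for CDKN1A, MDM2 and GDF15, and other lists by up to 4 genes with the largest difference, with LOXL2, TP73 and MDM4. GADD45A, SESN1 and TNFRSF10B were added after their values were seen. Alternatives were a common median over the genes above the filter (not over all probe sets), quantile normalization, a lowess correction, the median over probe sets, other filters and other fold sizes.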

Additional observations from a re-analysis of the deposited data

How the results depend on the processing

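With 1 array per group, no alternative can measure the spread between cultures. No paired analysis was possible because each group holds 1 array and no result comes from a test. Of 492 recomputed member differences, 481 moved by no more than the pooled probe set SD, but many could not have moved. The 87 without a filter and the 72 with the filter at the 60th percentile kept their deposited values, since a filter only selects genes. The shift to the same median moved its 87 by 1 constant per comparison. Quantile normalization and lowess can move single genes, and all 87 under each stayed within the SD. The 11 that moved more were among the 72 recomputed with the median over probe sets, which leaves members with 1 probe set unchanged. That setting takes the median value over all probe sets of a gene on each array and then subtracts. It is not the median of the differences, which was given above for MDM2 and PPM1D. The setting gave GDF15 -0.58 with delta72 and -0.98 with WT, FAS -0.30 and -0.16, PPM1D 0.83 and 0.68, and TIGAR 1.06 with WT. It counted 2 members at least 1.5-fold higher and 0 lower with delta72, out of 24, and its median for WT against control was 0.0235. The median for WT against control was -0.0679 after a shift to the same median over the genes above the filter and 0.0382 after lowess, and the median for delta72 against control was 0.0753 with the filter at the 60th percentile, so the sign of the WT median depends on the setting; the cause was not tested. By construction, a limit of 1.3-fold counted 3 higher and 2 lower with delta72, 5 and 4 with WT, and 1 lower between the forms, and a limit of 2-fold counted 0 in each comparison. The medians between the forms and all other counts stayed close to those as deposited. Members near the filter are limited by background, which was not measured per gene.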
